A study of Homo sapiens with 12 samples.

Results

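The genes described here are the nuclear-encoded subunits of the respiratory chain and ATP synthase, taken as the protein-coding genes whose symbols begin with NDUFA, NDUFB, NDUFC, NDUFS or NDUFV and a number, with UQCR, with COX and a digit from 4 to 8 or with ATP5, together with CYC1 and the SDHA to SDHD genes. The rule uses names only and finds 91 of the 58735 genes of the count table. By symbol, 39 were placed in complex I, 4 in complex II, 10 in complex III, 17 in complex IV and 21 in complex V, the ATP synthase. NDUFA4 and NDUFA4L2 are counted with complex I by their symbols, although the NDUFA4 protein is known as a subunit of complex IV. The list also holds 2 readthrough genes (NDUFC2-KCTD14 and ATP5MF-PTCD1), the retrocopy UQCRHL, and ATP5IF1, the inhibitor of ATP synthase. Of the 91 genes, 83 had enough counts to be tested.

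Polyadenylated RNA was measured in HEK293T, an immortalized human embryonic kidney cell line, in 4 groups with 3 libraries each. The DMSO group received vehicle. The CEP group was exposed for 1 h to 25 µM of AHL-Pu-1, a clickable electrophilic purine (the sample labels write 25 mM in the treatment protocol, and the study's design text and methods write µM). The 4SU group was grown for 16 h with 100 µM 4-thiouridine, a uridine analog that enters newly made RNA and allows crosslinking of RNA to protein. The CEP+4SU group received both compounds at these doses and times. The same protocol, with UV crosslinking, is written for all 12 libraries, and whether cells without 4SU were irradiated is not given separately. All libraries come from a single cell line. The supplement of the study describes the replicates as biologically independent experiments, and the sample labels do not say how cultures or days were divided among the replicate numbers.

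In the inner mitochondrial membrane, complexes I and II pass electrons from NADH and succinate to ubiquinone, complex III passes them on to cytochrome c, and complex IV hands them to oxygen. The proton gradient built by complexes I, III and IV drives ATP synthase. Complex I, III and IV and ATP synthase each combine nuclear-encoded subunits with subunits encoded in mitochondrial DNA, whereas complex II is encoded in the nucleus alone. Core subunits carry the redox centres or the catalytic sites, and accessory (supernumerary) subunits surround them. Several subunits of complex IV have tissue isoforms encoded by separate genes.

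Counts on genes ranged from 16569114 to 24644734 per library. All 6 markers of HEK293T cells were detected (KRT8, KRT18, VIM, NEFL, NEFM and PAX2), with summed values of 137.8 to 149.4 FPKM (fragments scaled by gene length and library size) in every library. The 5 markers of melanoma cells, which the study used elsewhere, summed to 1.68 to 3.29 FPKM and TYR was at 0. Only DCT among them differed in CEP+4SU against DMSO (log2 fold change 1.23, adjusted p = 0.045 by edgeR), at up to 0.84 FPKM. The 4 markers of other cells summed to 2.89 to 4.25 FPKM, nearly all of it COL1A1. The second CEP library stands apart for the genes described here: their summed FPKM was 3613 there and between 4077 and 4898 in the other 11 libraries. Since FPKM is scaled by library size, these values give shares of the counted RNA and not amounts per cell.

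The transcripts of the respiratory chain were abundant, and their levels differed widely between subunits of the same complex. Since FPKM divides by gene length, levels of different genes are compared on this scale. The lengths are those of the deposited count table, 507 to 14160 bases for the 83 tested genes. The order of levels depends on them. The median of the 83 tested genes was 33.2 FPKM (mean of each gene over 12 libraries), beside 5.61 FPKM for all 13975 protein-coding genes tested. Complex I contributed 32.9% ± 0.49 (SD, n = 12 libraries) of the summed FPKM of the 91 genes, ATP synthase 29.9% ± 1.1, complex IV 19.5% ± 1.2, complex III 15.1% ± 0.22 and complex II 2.62% ± 0.18. Median levels per tested gene were 23.4 FPKM in complex I, 27.6 in complex II, 65.1 in complex III, 58.8 in complex IV and 46.7 in ATP synthase.

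ATP5F1B, the catalytic beta subunit of ATP synthase, had the highest level of all, 544 FPKM ± 36 (SD, n = 12), and ranged from 490 to 618 FPKM. The highest level in complex I was that of NDUFS5, a small accessory subunit, at 275 FPKM ± 13. COX8A, the ubiquitous form of subunit 8, led complex IV at 165 FPKM ± 36. UQCRH, the hinge protein of complex III, led that complex at 159 FPKM ± 27. In complex II, SDHB, the iron-sulfur subunit, reached 49.5 FPKM ± 3.4, and the flavoprotein SDHA 28.6 ± 1.2. The membrane anchors SDHD and SDHC followed at 26.5 ± 4.1 and 11.9 ± 0.60 FPKM. Over all 12 libraries the ranges of SDHA (25.9 to 30.2) and SDHD (21.4 to 34.05) overlap. Within DMSO, SDHA (28.7 to 30.2) lay above SDHD (23.6 to 26.2), and in each of the other groups they overlapped. In FPKM, SDHB lay above both and SDHC below both in all libraries. Without division by length the order was another. In counts scaled to library size alone (CPM), SDHC averaged 175 in DMSO and SDHB 130.

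**Figure D1:**
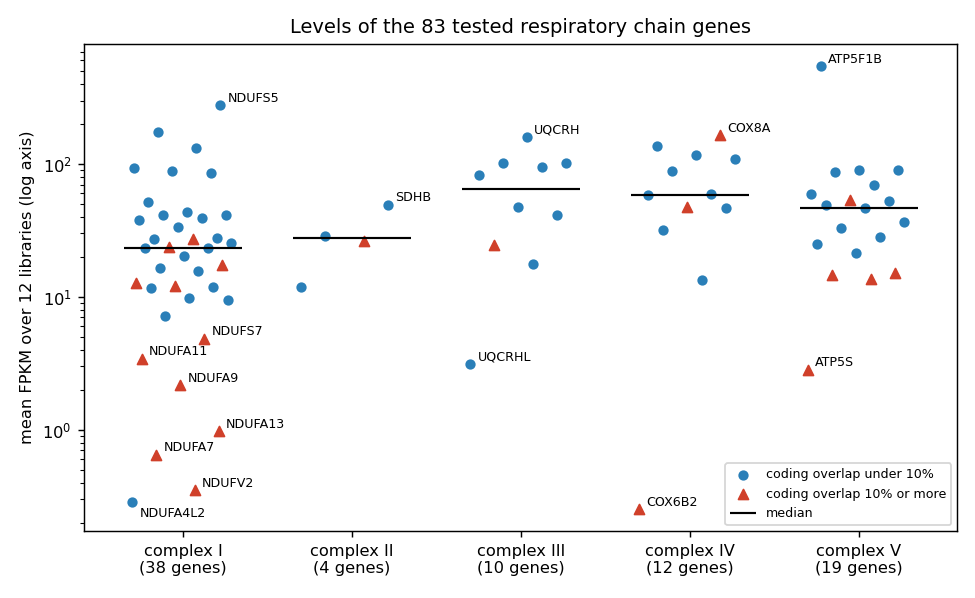
Mean FPKM over 12 libraries (log axis) of the 83 tested genes by complex, with the median of each complex as a line. Triangles mark genes that share at least 10% of their coding bases with exons of another gene, and 8 of the 10 genes under 5 FPKM are triangles.

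For the tissue isoforms, the ubiquitous gene was measured and the other was at or near 0. COX4I1 averaged 58.1 FPKM, and COX4I2, an isoform known from lung, had 0 counts in all libraries. COX7B averaged 46.7 FPKM and COX7B2 also had 0 counts. With NDUFC2-KCTD14 these were the 3 genes with no count among 238951234 counts in all, which allows up to 0.0126 CPM (counts scaled to library size, from 3 counts over the 12 libraries, counting error only). COX6A1 averaged 47.4 FPKM, and its heart and muscle isoform COX6A2 had 2 counts in 1 library and 0 in the other 11. COX7A2 averaged 59.5 FPKM and the muscle isoform COX7A1 0.18, with at most 14 counts per library. COX8C, at up to 7 counts, averaged 0.16 FPKM beside 165 for COX8A. COX6B1 averaged 117 FPKM and COX6B2, a testis isoform, 0.25. NDUFA4 averaged 27.4 FPKM and NDUFA4L2, a relative induced by hypoxia, 0.29. The retrocopy UQCRHL averaged 3.11 FPKM, beside 159 for its parent gene UQCRH, and ATP5MGL and ATP5MF-PTCD1 had at most 4 and 2 counts in any library. How reads were shared between such copies is not given in the sources used here, so values of genes with near-identical copies are uncertain.

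The c subunits, which form the proton-carrying ring of ATP synthase, are a case in which 3 genes encode the same mature protein with differing coding bases. The final 225 bases of the coding sequence, which cover the mature subunit, translate to the same 75 residues in ATP5MC1, ATP5MC2 and ATP5MC3 (GENCODE 29 transcripts, reference sequence). In ATP5MC1 and ATP5MC2 they differ at 25 bases in 24 codons (identity 88.9%), and each differs from ATP5MC3 at 42 bases in 39 codons (81.3%). Other parts of these genes, where reads are also counted, were not compared. The stretches of the first pair are shown with the silent differences in capitals:
ATP5MC1: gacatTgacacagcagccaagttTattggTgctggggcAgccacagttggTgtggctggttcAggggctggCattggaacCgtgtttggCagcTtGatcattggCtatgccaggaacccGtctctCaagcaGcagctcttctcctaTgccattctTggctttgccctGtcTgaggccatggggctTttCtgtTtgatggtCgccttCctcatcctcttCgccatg
ATP5MC2: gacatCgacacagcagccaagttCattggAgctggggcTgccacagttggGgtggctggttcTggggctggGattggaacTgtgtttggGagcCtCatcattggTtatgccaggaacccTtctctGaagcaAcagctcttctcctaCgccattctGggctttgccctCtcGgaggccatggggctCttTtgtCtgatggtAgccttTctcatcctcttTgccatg
On the FPKM scale all 3 genes stood at similar levels. ATP5MC2 (chromosome 12, 53632726 to 53677408, minus strand, GRCh38) averaged 46.7 FPKM ± 4.3 (SD, n = 12). ATP5MC1 (chromosome 17, 48892765 to 48895871, plus strand) averaged 36.6 ± 4.8, and ATP5MC3 (chromosome 2, 175176258 to 175184607, minus strand) 33.2 ± 3.4. The ranges over libraries overlap for ATP5MC1 (26.9 to 43.1) and ATP5MC3 (24.1 to 37.0), and the lowest value of ATP5MC2 was 36.9.

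Some core and accessory subunits of complex I were listed at very low levels. Among its nuclear-encoded core subunits, NDUFV1 averaged 33.3 FPKM, NDUFS8 27.7, NDUFS3 23.5, NDUFS1 16.5 and NDUFS7 4.83, while NDUFV2, an iron-sulfur subunit of the NADH-oxidizing module, averaged 0.35 FPKM, with 6 to 42 counts per library. The accessory subunits NDUFA7 and NDUFA11 averaged 0.65 and 3.41 FPKM, and NDUFA13 and NDUFA9, named after their values were seen, 0.97 and 2.16. NDUFA9 had 320 to 556 counts per library, which FPKM divides by its length. In the GENCODE 29 annotation these genes share much of their coding sequence with exons of another gene. The shared portion was 84.7% of coding bases for NDUFV2 (with AP005263.1), 78.3% for NDUFA7 (AC010323.1), 67.9% for NDUFA9 (AC005833.1), 55.2% for NDUFA13 (AC011448.1), 48.5% for NDUFS7 (AC005329.1, on the opposite strand) and 37.8% for NDUFA11 (AC024592.3). Of the 83 tested genes, 21 shared at least 10% of their coding bases, and their median was 13.6 FPKM with 8 of 21 under 5 FPKM. The other 62 had a median of 42.2 FPKM with 2 of 62 under 5. The relation is loose, since COX8A shares 55.1% and stood at 165 FPKM, and UQCR11, also named after its values were seen, shares all of its coding bases and stood at 24.6 FPKM. NDUFV2 also has a pseudogene that holds 76.1% as many counts as the gene, against 7.17% for SDHA, 4.98% for COX6A1, 1.89% for SDHD, 1.58% for UQCRFS1 and under 1% for the other 40 genes with annotated pseudogenes. Whether counting used strand, and what was done with reads on shared exons, is not given in the sources used here, and the part of shared exons in these levels was not tested.

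The first comparison asks what a short exposure to the purine probe does to these transcripts. With CEP alone, no respiratory chain gene passed the threshold of 0.05 on the adjusted p of edgeR's quasi-likelihood test, where 10 of all 17729 genes tested did (0.0564%). At an unadjusted p under 0.05, 2 were higher and 9 lower, or 11 of 83, beside 18.6% of all tested genes. DESeq2 called 2 of the 76 to which it gave an adjusted p, ATP5F1D and NDUFV1, both lower, beside 2.63% of all genes, and limma on log2(FPKM + 1) called none. The fold changes were small: their median was -0.10 on the log2 scale (beside -0.00468 for all tested genes), and 61 of 83 lay below 0, against 50.6% of all genes. By complex the medians were -0.11 in complexes I and III, -0.09 in complex IV, -0.07 in ATP synthase and -0.02 in complex II. In 9 genes all CEP libraries lay below all DMSO libraries (10.8%, background 10.1%), and in 2 above (2.41%, background 13.5%). The shift rests on the second CEP library, without which the median was -0.00336, while without the third it was -0.18.

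That library was the lowest of all 12 for 41 of the 83 tested genes, a position it held for 17.1% of all tested genes. The second CEP+4SU library held this position for 12 of the 83 and for 18.5% of all tested genes. The second CEP library had counts on 22230 genes and the second CEP+4SU library on 22627, beside 24376 to 25869 in the others. Within the respiratory chain genes the deviation of the second CEP library stepped with the gene length given in the count table. The 9 respiratory chain genes under 1000 bases had a median deviation of -0.62 from their 12-library mean (log2 CPM, pseudocount 0.5), the 21 genes from 1000 to under 2000 bases -0.42, the 31 genes from 2000 to under 4000 bases -0.28, and the 22 longer genes -0.07. Over all tested genes in the same classes the medians were -0.11, -0.17, -0.09 and 0.06, which are not in order of length. Respiratory chain genes are short, with a median length of 2615 bases beside 5094 for all tested protein-coding genes. What sets the second CEP library and the second CEP+4SU library apart from the others was not tested.

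**Figure D2:**
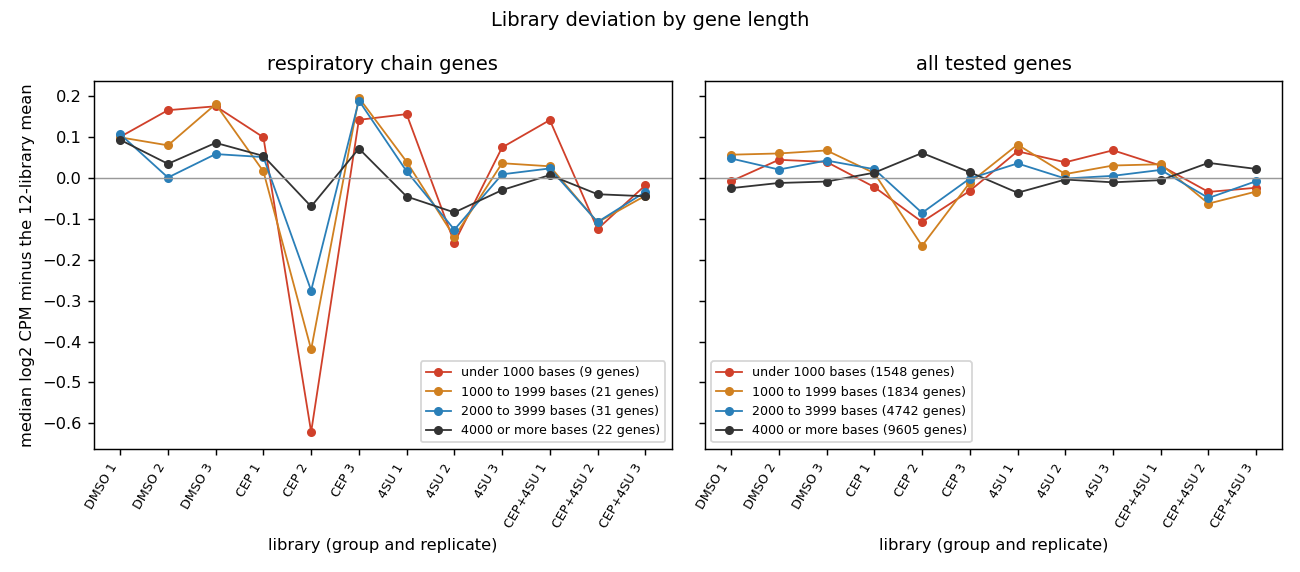
Median deviation of log2 CPM (pseudocount 0.5) from the 12-library mean, by gene length class, in each library, for the respiratory chain genes (left) and all tested genes (right). In the second CEP library the shortest respiratory chain genes lie at -0.62 and the longest at -0.07.

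With 4SU alone, the values lay slightly below DMSO in nearly all genes, and none passed the threshold. Of 83 fold changes 76 were below 0 (91.6%, beside 51.8% of all tested genes), among them all 10 tested genes of complex III and all 12 of complex IV. The median was -0.12 (beside -0.01 for all genes), and it was -0.18 in ATP synthase, -0.12 in complex I, -0.11 in complex IV, -0.09 in complex III and -0.07 in complex II. In 24 genes (28.9%) all 4SU libraries were below all DMSO libraries, beside 10.3% of all tested genes, and in 1, ATP5S, all were above, beside 7.58%. These 24 genes include 10 of ATP synthase and 9 of complex I. By edgeR, 0 of 83 passed where 1 of all tested genes did (0.00564%), and at an unadjusted p under 0.05 there were 1 higher and 14 lower, beside 6.5% of all genes. DESeq2 called none of 60 respiratory chain genes (0.425% of all genes), and limma none. Leaving out single libraries moved the median between -0.14 and -0.08, the latter without the second 4SU library.

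Under both compounds, CYC1 fell, and it was the only respiratory chain gene past the threshold in any of the 8 comparisons by edgeR. CYC1 (chromosome 8, 144095027 to 144097525, plus strand, GRCh38) encodes cytochrome c1, the haem subunit through which complex III delivers electrons to cytochrome c. Its CPM values (library sizes corrected by the trimmed mean of M values) were 252, 224 and 242 in DMSO, 212, 191 and 189 in CEP, 211, 193 and 202 in 4SU, and 197, 146 and 179 in CEP+4SU. All 9 treated libraries lay below the lowest DMSO library, and the middle groups overlapped with each other. Against DMSO (239 CPM ± 14.5, SD, n = 3), CEP+4SU (174 ± 25.8) differed by -0.46 ± 0.09 (SE) on the log2 scale, adjusted p = 0.026 by edgeR. CEP alone gave -0.28 ± 0.09 (adjusted p = 0.19) and 4SU alone -0.24 ± 0.09 (adjusted p = 0.72), and the interaction was 0.06 with an interval from -0.20 to 0.32. The 3 comparisons share the DMSO libraries.

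CYC1 has a GC content of 64.5%, and genes of such composition were lower as a class: the median over all 5214 tested genes with at least 55% GC was -0.21 in CEP+4SU against DMSO. With each library's trend on GC content removed, the difference of CYC1 was -0.16 with adjusted p = 0.23, no longer past the threshold. The call was also lost without any 1 of the DMSO libraries (adjusted p = 0.15, 0.092 and 0.12, values -0.42, -0.50 and -0.45), without replicate 3 of 4SU (0.051, value -0.46), and without replicate 2 or replicate 3 of CEP+4SU (0.10 and 0.079, values -0.34 and -0.48). It was kept on leaving out each of the other 6 libraries.

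**Figure D3:**
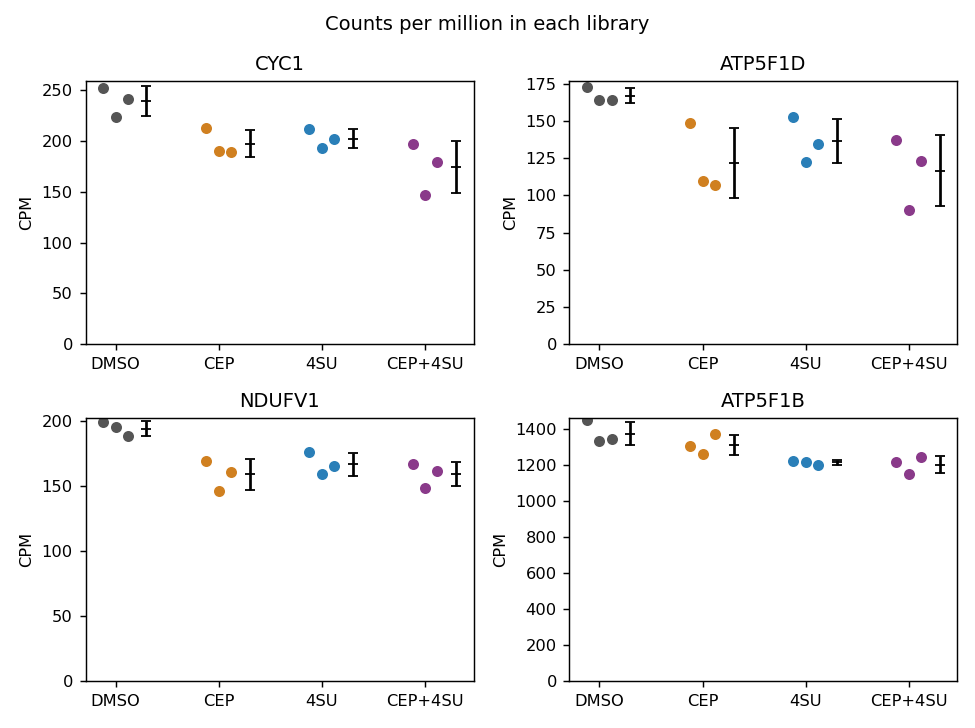
CPM in each library for CYC1, ATP5F1D, NDUFV1 and ATP5F1B, with replicates as points and the mean and SD of 3 libraries beside them, on axes that start at 0. All treated libraries of CYC1 and NDUFV1 lie below all DMSO libraries (lowest DMSO values 224 and 188).

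The next 3 genes by adjusted p in CEP+4SU against DMSO were ATP5F1D, NDUFV1 and ATP5F1B, and none passed the threshold. ATP5F1D, the delta subunit of the central stalk of ATP synthase, had 173, 164 and 164 CPM in DMSO, 149, 110 and 107 in CEP, 153, 123 and 135 in 4SU, and 137, 90.1 and 123 in CEP+4SU. Every treated library was below every DMSO library, and the treated groups overlapped. The difference under both compounds was -0.52 ± 0.13 (SE), adjusted p = 0.052 by edgeR, and it passed in 8 of 23 alternative fits. NDUFV1 carries the FMN and the NADH site of complex I. It had 199, 195 and 188 CPM in DMSO, 169, 146 and 161 in CEP, 176, 159 and 165 in 4SU, and 167, 148 and 162 in CEP+4SU. Its differences were of like size in all treated groups, -0.29 ± 0.08 with CEP, -0.22 ± 0.08 with 4SU and -0.29 ± 0.08 with both, with adjusted p = 0.17, 0.68 and 0.060 by edgeR. ATP5F1B had 1445, 1328 and 1343 CPM in DMSO, 1302, 1258 and 1369 in CEP, 1221, 1217 and 1198 in 4SU, and 1212, 1148 and 1240 in CEP+4SU. For ATP5F1B the CEP libraries overlapped with DMSO and the libraries with 4SU did not. Its difference was -0.07 ± 0.06 with CEP, -0.18 ± 0.06 with 4SU and -0.19 ± 0.06 with both, none past the threshold.

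Across the whole list under both compounds, 1 of 83 genes passed, which is 1.2% beside 1.64% (290) of all tested genes, so the share of calls was near the background. At an unadjusted p under 0.05, 2 were higher and 15 lower, beside 21.4% of all genes. DESeq2 called 5 of 77 (ATP5F1B, ATP5F1D, CYC1, NDUFS8 and NDUFV1), each lower, beside 10.6% of all genes, and limma none. The median difference was -0.14 (0.00 over all tested genes), with -0.16 in complex III, -0.15 in complex I and in ATP synthase, -0.10 in complex II and -0.06 in complex IV. Of the 83, 66 lay below 0. In 27 (32.5%) all CEP+4SU libraries were below all DMSO libraries, beside 14.6% of all tested genes, and in 4 (4.82%) all were above, beside 14.1%. Those 4 were ATP5MG, ATP5S, SDHD and COX7B, the last named after its values were seen.

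**Figure D4:**
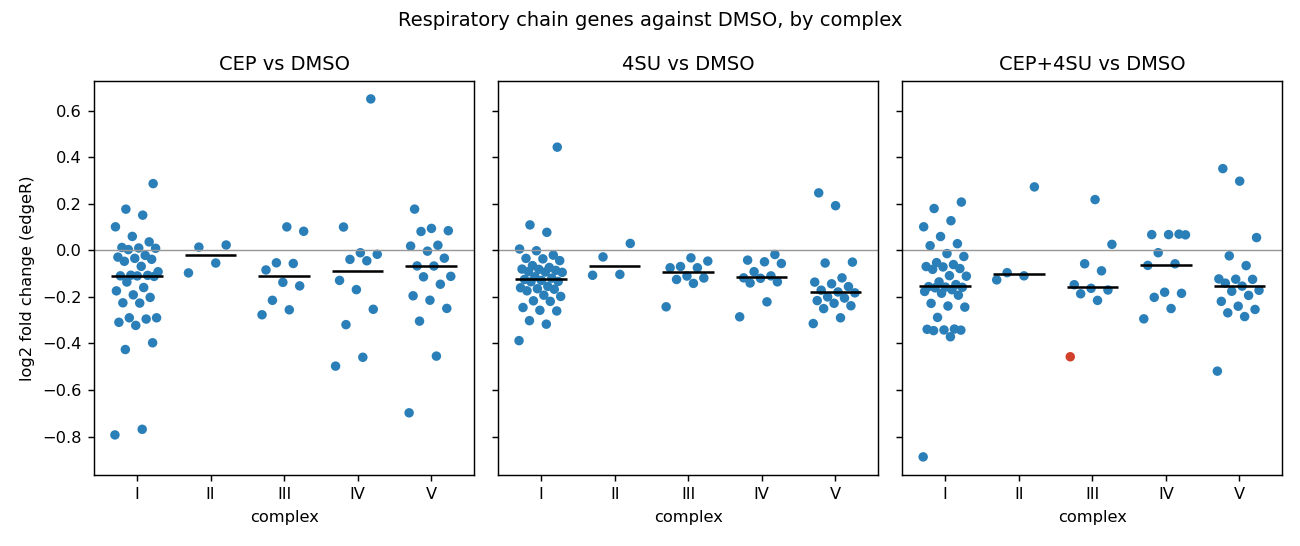
Log2 fold changes of the 83 tested genes against DMSO by complex, with the median of each complex as a line and genes past an adjusted p of 0.05 in red. Only CYC1 in complex III under both compounds is red, at -0.46, and under 4SU all genes of complexes III and IV lie below 0.

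At the ends of the distribution under both compounds stood ATP5MG and ATP5S above and NDUFA7 and ATP5F1D below. ATP5MG, subunit g in the membrane part of ATP synthase, had 48.6, 44.0 and 41.6 CPM in DMSO and 56.9, 57.9 and 56.4 in CEP+4SU (0.35 ± 0.14, adjusted p = 0.16 by edgeR), and 56.5% of its coding bases are shared with AP001267.5. ATP5S, a factor linked to ATP synthase and also named DMAC2L, was the lowest tested gene of its complex at 2.83 FPKM. It had 28.0, 28.0 and 29.1 CPM in DMSO and 35.5, 34.5 and 34.6 in CEP+4SU (0.30 ± 0.10, adjusted p = 0.098). The groups did not overlap in either gene. NDUFA7 gave -0.89 ± 0.53 (adjusted p = 0.34), and since it had 7 to 32 counts per library a difference of this size was not detectable at this depth. SDHD gave 0.27 ± 0.14 (adjusted p = 0.25), while SDHA, SDHB and SDHC gave -0.11, -0.13 and -0.10.

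Averaged over cells with and without 4SU, the probe effect had a median of -0.06 (from -0.10 without the second 4SU library to -0.01 without the second CEP library). Of the 83 genes, 52 lay below 0, beside 51.1% of all tested genes. None was past the threshold by edgeR (49 of all tested genes, 0.276%). At an unadjusted p under 0.05 there were 1 higher and 6 lower, beside 24.3% of all genes, and DESeq2 called 3 of 76 (ATP5F1D, CYC1 and NDUFV1), beside 15.6% of all genes, and limma none. The lowest values were those of NDUFA11, a membrane-arm subunit (-0.43 ± 0.17, adjusted p = 0.13, and -0.27 without the second CEP library, while without the first CEP library it was -0.54 and past the threshold with adjusted p = 0.042), and ATP5F1D (-0.34 ± 0.09, adjusted p = 0.072). The highest were those of COX6B2 (0.42 ± 0.35, adjusted p = 0.49, and 0.18 to 0.56 on leaving out single libraries), at 8 to 42 counts per library, and NDUFC2, a membrane-arm subunit (0.24 ± 0.09, adjusted p = 0.11). Among the core subunits of complex I, NDUFV2 stood lowest at -0.33, at 6 to 42 counts per library, and NDUFS1 highest at 0.10. The sign for NDUFV2 was not stable, with -0.79 for CEP against DMSO and 0.14 for CEP+4SU against 4SU.

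In the probe effect the members were ordered by GC content. Of the 20 tested genes with at least 55% GC, 19 lay below 0 when CEP was averaged over both 4SU states (median -0.20), and all 5214 tested genes of this class had a median of -0.17. Of the 33 genes between 45% and 55%, 23 lay below 0 (median -0.07, all genes -0.01). Of the 30 genes under 45%, 10 lay below 0 (median 0.02, all genes 0.13). Across the 83 genes Pearson's r between GC content and fold change was -0.56 (Spearman's rho -0.62), given as a description, since the genes share the same 12 libraries. For 4SU averaged over CEP the same r was -0.21. In each class and in both averaged effects the respiratory chain genes had the lower median. Libraries of the same group differed in this trend. For all tested genes with at least 55% GC, the median deviation from the 12-library mean was 0.07, -0.18 and -0.13 in CEP. It was 0.05, -0.25 and -0.02 in CEP+4SU, 0.12, 0.13 and 0.13 in DMSO, and 0.14, -0.02 and 0.02 in 4SU. The cause of the trend was not tested.

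**Figure D5:**
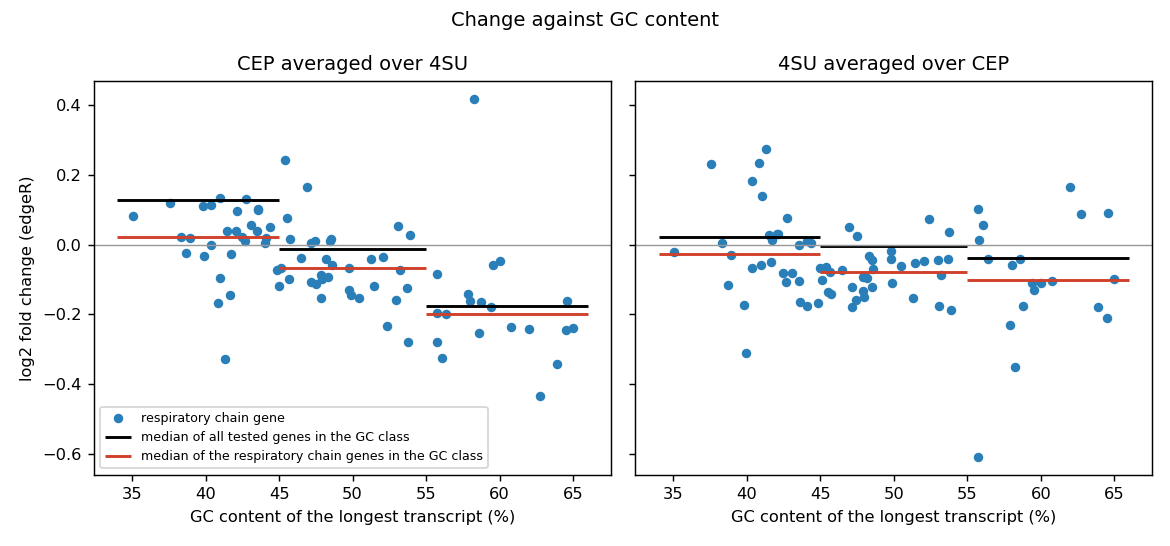
Log2 fold change of each of the 83 genes against the GC content of its longest transcript, for CEP averaged over 4SU (left) and 4SU averaged over CEP (right), with class medians of the respiratory chain genes in red and of all tested genes in black. With CEP, both medians step down with GC content, to -0.20 and -0.17 in the class of at least 55%.

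Averaged over cells with and without CEP, 4SU gave a median of -0.07 (-0.13 without the second CEP library, and -0.04 without the third CEP library or the second 4SU library). Of the 83 genes, 60 lay below 0, beside 50.7% of all tested genes. None passed by edgeR (99 of all tested genes, 0.558%). At an unadjusted p under 0.05, 2 were higher and 16 lower, beside 12.6% of all genes. DESeq2 called ATP5F1B, lower, as 1 of 79, beside 2.6% of all genes, and limma none. ATP synthase had the lowest median of the complexes, -0.12, with 15 of 19 genes below 0. Within it, all 5 genes of the catalytic F1 head and central stalk were below 0 (median -0.15, 3 at an unadjusted p under 0.05), as were all 4 genes of the peripheral stalk (median -0.17, 3 at an unadjusted p under 0.05). The 3 c subunit genes had a median of -0.06 and the 5 membrane accessory subunits 0.00. ATP5F1B stood at -0.15 ± 0.04 (adjusted p = 0.12). The lowest values were those of NDUFA7 (-0.61 ± 0.37, adjusted p = 0.53) and COX6B2 (-0.35 ± 0.35, adjusted p = 0.74). The highest were NDUFV2 (0.27 ± 0.37, adjusted p = 0.82) and COX6A1 (0.24 ± 0.18, adjusted p = 0.64). COX6A1 had 54.9, 21.6 and 72.9 CPM in the CEP libraries, and its value was 0.06 without the second and 0.42 without the third of them. NDUFA7, COX6B2 and NDUFV2 are the low-count genes described above, and their intervals include 0.

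Each compound was also compared in the presence of the other, in libraries that the comparison with DMSO does not use. CEP+4SU against 4SU gave a median of 0.00, with 42 genes below 0 (beside 49.4% of all tested genes) and 41 above. By edgeR 0 of 83 passed (0.0451% of all tested genes), and at an unadjusted p under 0.05 there was only CYC1, lower (-0.21 ± 0.09), beside 7.89% of all genes. DESeq2 called none of 78 (0.138% of all genes), and limma none. Of the 61 genes that lay below 0 with CEP against DMSO, 39 were below 0 here too. CEP+4SU against CEP gave a median of -0.04, with 48 of 83 genes below 0, beside 50.1% of all tested genes. By edgeR 0 of 83 passed (0.00564%), and 4 were lower at an unadjusted p under 0.05, beside 8.96% of all genes. DESeq2 called none of 79 (0.525% of all genes), and limma none. The sign of this median was not stable, since it was -0.13 without the second CEP library and 0.04 without the third. Of the 76 genes below 0 with 4SU against DMSO, 46 were below 0 here too. Across the 83 genes the fold changes in the 2 settings had r = 0.26 for CEP and 0.16 for 4SU, beside 0.20 and 0.15 over all tested genes.

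Whether the effect of one compound differed in the presence of the other was tested as an interaction, which was past the threshold by edgeR in 0 of 83 genes and in 0 of all 17729 (0.0%), with 1 of 83 at an unadjusted p under 0.05 (NDUFB2, named after its value was seen, 0.38 ± 0.16, beside 2.63% of all genes), none of 88 by DESeq2 (0.0%) and none by limma. The interaction was above 0 in 63 of 83 genes, beside 9003 of all 17729 tested genes. In these genes the fold change with both compounds was higher than the sum of the single ones. The DMSO libraries enter the single comparisons and the interaction with opposite sign. The median interaction was 0.10 in the 83 genes, beside 0.00 over all tested genes. This direction rests on the second CEP library, without which the median was -0.02.

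The mitochondrial genome encodes the partners of these subunits. There the measured change with CEP averaged over 4SU was past the threshold in 2 of 13 mRNAs, beside 0.276% of all tested genes. MT-ND2 and MT-ND1, core subunits in the membrane arm of complex I, fell. MT-ND2 had 928, 1006 and 1070 CPM in DMSO and 895, 808 and 895 in 4SU. It had 667, 533 and 435 CPM in CEP and 563, 572 and 569 in CEP+4SU. All libraries with CEP lay below all without it. MT-ND2 changed by -0.74 ± 0.08 for CEP averaged over 4SU (adjusted p = 3.6e-05 by edgeR) and MT-ND1 by -0.67 ± 0.10 (adjusted p = 0.0047). All 13 mRNAs lay below 0 in this effect, beside 51.1% of all tested genes, with a median of -0.21. Against DMSO, CEP alone gave a median of -0.39 with all 13 below 0. CEP+4SU against 4SU gave a median of -0.05, with 9 below 0 and 4 above. The third CEP library had the lowest summed CPM of these mRNAs, 8099, beside 9490 to 14143 in the others. Nuclear copies of MT-ND2 hold 4.14% as many counts as the gene, nearly all on MTND2P28, whose mean CPM was 43.4 in DMSO, 23.4 in CEP, 34.6 in 4SU and 20.5 in CEP+4SU. The log2 ratio of summed respiratory chain CPM to summed CPM of the 13 mitochondrial mRNAs was -0.22 ± 0.18 (SD, n = 3) in DMSO, 0.04 ± 0.37 in CEP, -0.18 ± 0.04 in 4SU and -0.11 ± 0.20 in CEP+4SU, and the groups overlap.

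Genes that build the complexes, and are not part of them, showed few changes. Among 17 assembly factors of complex I, NDUFAF3 fell with both compounds (-0.66 ± 0.12, adjusted p = 0.021 by edgeR) and with 4SU averaged over CEP (-0.46 ± 0.09, adjusted p = 0.021), and no other passed. None of 4 assembly factors of complex II, 6 of complex III, 26 of complex IV and 5 of ATP synthase passed in any of the 8 comparisons by edgeR. None of 12 regulators of mitochondrial biogenesis passed either. In CEP averaged over 4SU, 4 of them were higher and 2 lower at an unadjusted p under 0.05 by edgeR, beside 24.3% of all tested genes. Under both compounds the medians were -0.03 for complex I assembly factors, 0.00 for complex II, 0.09 for complex III, -0.06 for complex IV and for ATP synthase assembly factors, and 0.02 for the biogenesis regulators. CYCS, which encodes cytochrome c, and NDUFAB1, the acyl carrier protein of complex I, lie outside the name rule, and neither passed.

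The promoters of these genes held motifs of factors known for nuclear respiratory genes more often than promoters at large. RefSeq promoter sequences (250 bases before to 50 after the start, GRCh38.p14) were matched for 70 of the 91 genes. The NRF1 core motif GCGCATGC, on either strand, occurred in 13 of 70 (18.6%), beside 4.25% of 15317 protein-coding promoters of the same length. The ETS motif CCGGAAG, which GABP binds, occurred in 20 (28.6%, beside 14.4%), the YY1 motif AAGATGGC in 11 (15.7%, beside 3.97%), and the ERR motif AAGGTCA in 9 (12.9%, beside 3.13%). The SDHB promoter, at chr1:17053983-17054282 on the minus strand, is shown because it holds all 4, in capitals. In order they are ERR, NRF1 (as its reverse complement), ETS and YY1:
SDHB: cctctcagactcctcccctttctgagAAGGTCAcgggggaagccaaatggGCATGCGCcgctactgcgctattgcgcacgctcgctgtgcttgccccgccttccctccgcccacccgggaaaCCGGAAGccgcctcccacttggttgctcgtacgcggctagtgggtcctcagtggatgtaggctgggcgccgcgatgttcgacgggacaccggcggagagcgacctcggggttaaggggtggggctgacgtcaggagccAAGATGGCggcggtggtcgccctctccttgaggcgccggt
The NDUFV1 promoter, at chr11:67606686-67606985 on the plus strand, is shown as a contrast because it holds none of these letters:
NDUFV1: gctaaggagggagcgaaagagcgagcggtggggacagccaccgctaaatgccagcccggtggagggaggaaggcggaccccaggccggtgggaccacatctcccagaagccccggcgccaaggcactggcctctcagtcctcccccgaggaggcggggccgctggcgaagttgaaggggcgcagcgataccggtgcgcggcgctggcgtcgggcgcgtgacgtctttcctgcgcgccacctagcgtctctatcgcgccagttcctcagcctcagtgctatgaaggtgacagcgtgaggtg
SDHB stood at -0.13 ± 0.08 and NDUFV1 at -0.29 ± 0.08 under both compounds. These genes were chosen for their promoter letters, and whether fold changes differ with motif content was not tested. Other genes with several of the motifs had means in either direction. NDUFS7, with the NRF1, YY1 and ERR motifs, averaged 41.0 CPM in DMSO and 32.3 in CEP+4SU. SDHD, with the NRF1, ETS and ERR motifs, averaged 71.5 CPM in DMSO and 86.4 in CEP+4SU. A match is a run of letters and not a measured binding site.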

How the data were processed

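Per the labels and the study's methods, reads were aligned to GRCh38 with HISAT2 2.0.5 and assigned to genes with featureCounts 1.5.0-p3. The authors deposited raw counts and, in a second table, FPKM, which scales them by gene length and library size.

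Genes were kept by filterByExpr (at least 10 counts, 15 in total), and counts were scaled by TMM and fitted in 1 quasi-likelihood model of 4 groups (edgeR 4.0.16, R 4.3.3, prior count 0.125), with Benjamini-Hochberg adjustment over all 17729 genes tested at 0.05. Standard errors are the fold change over the root of F. Intervals are nominally 95% from the normal distribution, which makes no allowance for the small groups. DESeq2 1.42.0 and limma 3.58.1 (log2(FPKM + 1), mean FPKM of at least 0.1) were alternatives, with other normalizations and filters, robust dispersion, replicate block, length and GC trends, the compared libraries alone and each library left out. The fit was tested on simulated counts. Shared exons and GC content are from GENCODE 29, and gene lengths are those of the deposited count table.

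The genes named are those past the threshold, the extremes of 3 comparisons, the highest and lowest per complex, isoform and copy pairs and the core of complex I, of which 1 gene is not reported here. Members, lists and tests were chosen with earlier results of these data known. Libraries were not paired by replicate number in the main fit. Of 18 same-numbered pairs, 1 had a correlation of deviations over 0.1 (-0.05 to 0.14). Whether same-numbered libraries share a batch is not settled by this or by the labels. FASTQ reads were not used, and isoforms were not analysed here. Depth limits precision for genes with few counts, and intervals cover the spread between libraries.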

Additional observations from a re-analysis of the deposited data

How the results depend on the processing

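Counts of respiratory chain genes past the threshold depended on the processing, and calls over all genes moved with them. Shares of all genes under the same setting stand in parentheses, and without the low-count filter these include many genes with few counts. For CEP against DMSO (0 by edgeR), there were 12 without the filter (1.86%), 6 with the replicate block (4.4%) and 2 with DESeq2. For 4SU against DMSO (0), there was 1 with the compared libraries alone (0.557%). For CEP+4SU against DMSO (1), there were 8 without the filter (3.46%), 9 with the replicate block (9.4%, beside 10.8% of the 83), 5 with DESeq2, 5 with the compared libraries alone (3.36%), 2 with upper-quartile normalization (1.76%), 2 with the length trend removed (1.97%), 0 with the GC trend removed (1.25%) and 0 with limma (0.045%). For CEP+4SU against CEP (0) there was 1 without the filter (0.286%). For CEP averaged over 4SU (0), there were 8 without the filter (4.06%), 6 with the replicate block (12.8%, beside 7.23% of the 83) and 3 with DESeq2. For 4SU averaged over CEP (0), there were 2 without the filter (0.873%), 2 with the replicate block (1.9%), 5 with the GC trend removed (3.41%) and 1 with DESeq2. Shares for DESeq2 are given in the comparisons above. Leaving out each library in turn gave 0 to 4 genes for CEP, 0 to 4 for both compounds, 0 to 4 for CEP averaged, 0 to 1 for 4SU averaged and 0 in the other comparisons. The 4 for CEP (6.61%) and for CEP averaged (11.8%) arose without the first CEP library. For both compounds, 4 arose without the second CEP (3.52%) or the first CEP+4SU library (4.42%) and 3 without the first CEP library (3.2%), and for CEP averaged 3 without the first CEP+4SU library (6.16%). The 1 for 4SU averaged arose without the second CEP library (0.613%). The labels do not say whether libraries of the same replicate number share a batch, so the block is given only as an alternative. None of the named genes tested under the alternatives changed direction. Intervals were widest for genes with few counts, such as NDUFA7, NDUFV2 and COX6B2. The causes of these differences were not tested.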
